A study of Homo sapiens with 16 samples.

Results

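Heparan sulfate is made, edited and displayed by a small set of proteins, and 10 of their genes are described here in a human Hodgkin lymphoma line: SULF1, SULF2, EXT1, EXT2, NDST1, NDST2, HS2ST1, HPSE, SDC1 and SDC4. They are 10 of the 18656 genes named at exon level, and their probe sets are those whose only gene symbol is one of the 10. At gene level, 8 of the 10 had a probe set of their own, among 18395 named genes. NDST2 had none and the gene-level probe set of SDC4 also carries another symbol, so both were read from the mean of their exon-level probe sets, 17 for NDST2 and 7 for SDC4. In all, 168 of 257430 exon-level probe sets belong to these genes, and 138 of the 168 passed the filter on low signals (8 of 8 genes at gene level). The genes were picked on how they differed between arrays labelled induced and uninduced, so those differences are given as a description, without a test. Differences between B codes and between last numbers were not what the genes were picked on, and were tested. Earlier results of these data were known when the genes were picked.

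Heparan sulfate is a long sugar chain carried on core proteins of the cell surface and matrix. A copolymerase extends the chain, sulfotransferases and an epimerase modify it on its way through the Golgi, and the resulting pattern of sulfate groups sets which growth factors, chemokines and cytokines the chain can bind. Outside the cell the pattern can still be edited by sulfatases and the chain cut by heparanase, and in the B lineage the core protein syndecan-1, also called CD138, is the classical surface marker of plasma cells.

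All arrays hold RNA of L1236, an established line of Hodgkin lymphoma cells grown in RPMI with fetal bovine serum. All groups, controls included, carry a retrovirus that encodes a short hairpin RNA against RELB, a subunit of the NF-kB transcription factors. The 4 arrays labelled infected uninduced shREL-B had no inducer named, and the 4 labelled infected induced shREL-B came from cells given doxycycline, the drug that switches the hairpin on. The labels name neither its dose nor the length of treatment. Each uninduced array has an induced partner with the same B code (B_1 or B_4) and the same last number (1 or 4), and the labels explain neither. Replicates 1 and 2 are B_1, replicates 3 and 4 are B_4, and replicates 1 and 3 have the last number 1. The labels do not say whether arrays of one group came from separate cultures; the p-values therefore cover the spread among these arrays and no more, and that spread may be technical. Values are log2 signals, and the precision is limited by the number of arrays.

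RELB itself did not bear out the labels. The uninduced arrays averaged 7.40 ± 0.13 on the log2 scale and the induced ones 7.25 ± 0.11 (SD over 4 arrays). A two-sided exact permutation test gave p = 0.171, where 0.0286 is the smallest p possible. Every direction below therefore rests on the labels alone. As background for the marker counts, limma called 27.1% of all tested genes higher in arrays labelled induced and 28.4% lower. Of the Hodgkin cell markers, 3 of 10 were higher in arrays labelled induced and 6 lower by limma. Among the 6, ID2 (uninduced 9.41, induced 4.19) and IL13 (5.54 and 4.75) had an induced mean under the filter of 4.77. The defining marker TNFRSF8 (CD30) averaged 6.89 under the uninduced label and 11.59 under the induced one. All 7 tested of 8 plasma cell markers were higher in arrays labelled induced, and the summed linear signal of the list ran from 1865 to 2149 without and from 7304 to 9277 with the induced label. For 2 of those 7, CD38 and SLAMF7, the uninduced mean lay under 4.77, the filter on low signals. Of the B cell markers 6 of 8 were tested: CD79A, CD22, PAX5 and CR2 were higher. For CR2 the uninduced mean was 3.15, under the filter, beside 7.59 in arrays labelled induced. BLK was lower (-0.79) and CD79B did not pass (-0.06). MS4A1 read 4.49 and 4.52 and was not tested. The summed signal of the 7 B cell markers named on the array ran from 780.1 to 896 and from 6166 to 7965. Linear sums lean on the brightest genes, here PAX5 (means of 9.05 and 11.81), and are no measure of a whole list. The part of these shifts in the results below was not tested. RMA signals have no zero, so absence of a marker cannot be read from them.

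Between the labels the 10 genes did not move one way. SULF1 and NDST1 were at least 2-fold lower in arrays labelled induced, EXT1, HS2ST1 and SDC4 at least 2-fold higher, and the other 5 differed by less than 2-fold. Read as exon-level means, EXT1 (0.93) and HS2ST1 (0.85) were under 2-fold, which left 3 genes past it. The 4 values of one group lay apart from the 4 of the other for 7 genes, and the groups overlapped for SULF2, HPSE and NDST2. The median log2 difference of the 10 was -0.10, beside 0.02 over all 13796 tested genes. As background, 16.5% of tested genes differed by 2-fold or more and 49.8% had groups that did not overlap; nothing is read from the counts of the 10 against these shares, since the genes were picked on this difference.

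**Figure D1:**
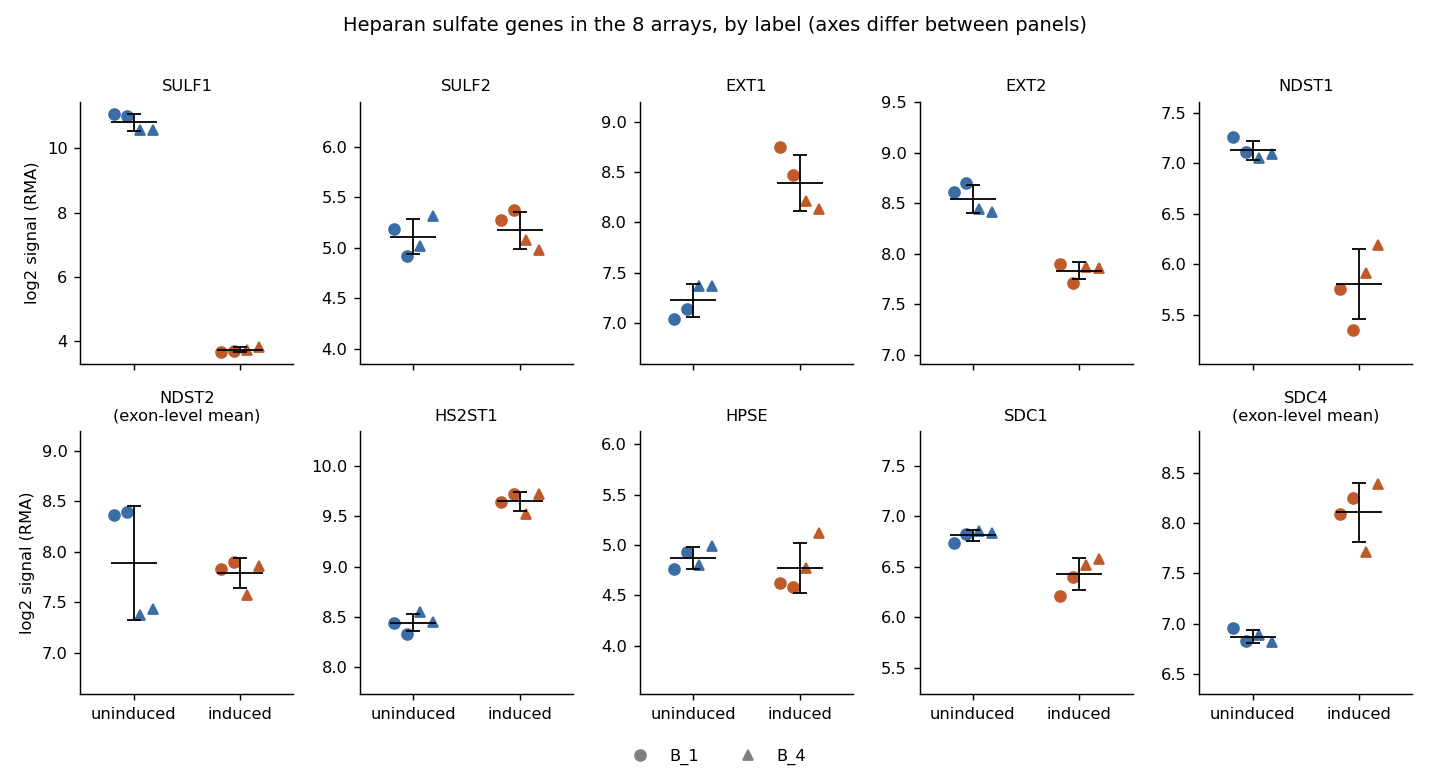
Log2 signal of each gene in the 8 arrays, by induction label and B code (circles B_1, triangles B_4); the horizontal bar is the group mean and the whiskers 1 SD, n = 4, and axes differ between panels. SULF1 falls from between 10.57 and 11.06 to between 3.65 and 3.84, while SULF2, HPSE and NDST2 overlap between the labels.

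SULF1, a secreted endosulfatase that removes 6-O-sulfate groups from finished heparan sulfate chains, had the largest difference of the 10. In replicates 1 to 4 it read 11.06, 11.02, 10.58 and 10.57 on arrays labelled uninduced and 3.65, 3.71, 3.74 and 3.84 on arrays labelled induced. All 4 uninduced values were high and all 4 induced values low, with no overlap. The fitted log2 difference was -7.07 ± 0.12 (SE), with group means of 10.81 ± 0.27 and 3.73 ± 0.08 (SD, n = 4 each). The induced values all lie under 4.77, the 25th percentile of gene means that served as the filter, and no detection call was used. Signals that low are not ordered here, so no fold is given for SULF1. In bulk RNA, fewer cells that express a gene and less RNA per cell cannot be told apart.

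Each of the 28 exon-level probe sets of SULF1 was lower in arrays labelled induced, by -9.50 to -0.88 log2 units. For 27 of them the drop was at least 2-fold and the groups did not overlap. Over all 168240 tested exon-level probe sets 19454 were at least 2-fold lower. In the same background 22.4% differed by 2-fold or more either way, and 36.6% had groups that did not overlap. This background also stands beside the probe set counts of the other genes below. The induced mean was under 4.77 for 21 of the 28. Probe set 8146865 was the exception: it read 8.87, 8.62, 8.95 and 9.54 in arrays labelled uninduced and 7.37, 8.75, 8.43 and 7.89 in arrays labelled induced, so its groups overlapped. Probe set 8146875 was lower by 3.37 log2 units and still read 9.16 to 9.63 in arrays labelled induced. Which exon each probe set lies in is not given in the sources used here.

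SULF2, the second endosulfatase with the same activity, did not follow SULF1. It read 5.19, 4.92, 5.02 and 5.31 in arrays labelled uninduced and 5.27, 5.37, 5.07 and 4.98 in arrays labelled induced. The groups overlapped and the fitted difference was 0.06 ± 0.12 (SE). Of its 25 exon-level probe sets 13 were lower and 12 higher, 23 had overlapping groups, and 12 had a mean under the 25th percentile in each group.

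**Figure D2:**
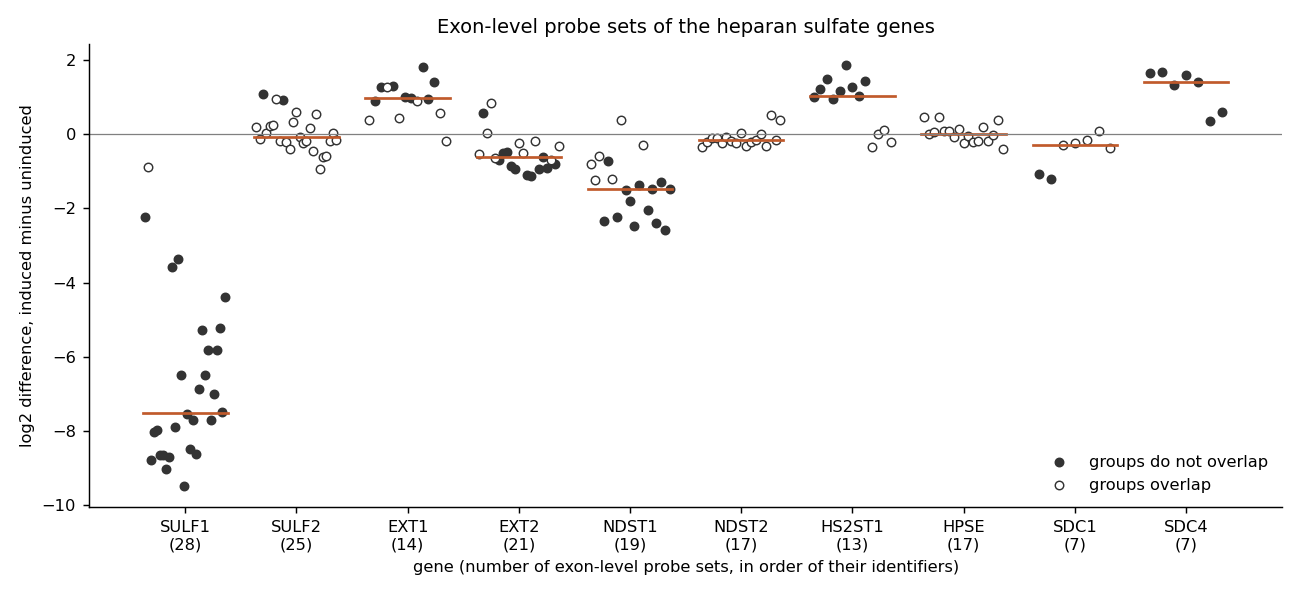
Log2 difference (induced minus uninduced) of each of the 168 exon-level probe sets, by gene and in order of their identifiers; filled points are probe sets whose groups do not overlap, and the line is the gene's median. The 28 probe sets of SULF1 lie between -9.50 and -0.88, while the 17 of HPSE and the 17 of NDST2 all have overlapping groups.

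EXT1 and EXT2 form the copolymerase that adds alternating glucuronic acid and N-acetylglucosamine to the growing chain, and they moved in opposite directions. EXT1 read 7.04, 7.15, 7.37 and 7.37 in arrays labelled uninduced and 8.75, 8.47, 8.22 and 8.14 in arrays labelled induced. The induced values were all above the uninduced ones, and the 2 highest were the B_1 arrays. The difference was 1.16 ± 0.14 (SE), or 2.24-fold higher, with 1.52 ± 0.12 within B_1 and 0.81 ± 0.12 within B_4. Of 14 exon-level probe sets 13 were higher, 8 of them without overlap of the groups.

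EXT2 read 8.61, 8.70, 8.44 and 8.42 in arrays labelled uninduced and 7.89, 7.71, 7.87 and 7.86 in arrays labelled induced. Every induced value was lower than every uninduced value. The difference was -0.71 ± 0.09 (SE), a 1.64-fold lower level. Of its 21 exon-level probe sets 18 were lower, and the 3 that read higher were 7939526, 7939527 and 7939528, with differences of 0.57, 0.03 and 0.85.

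NDST1 and NDST2 are bifunctional enzymes that replace N-acetyl groups of the chain by N-sulfate, the step on which later sulfation builds. NDST1 read 7.27, 7.11, 7.05 and 7.09 in arrays labelled uninduced and 5.75, 5.35, 5.92 and 6.19 in arrays labelled induced. The uninduced arrays lay close together, while the induced ones spread more widely, with both B_4 arrays on top. The difference was -1.33 ± 0.14 (SE), or 2.51-fold lower, with -1.63 ± 0.15 within B_1 and -1.02 ± 0.15 within B_4. Of 19 exon-level probe sets 18 were lower, 14 of them by at least 2-fold, and 8109301 was lowest at -2.57.

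NDST2, as the mean of 17 exon-level probe sets, read 8.37, 8.39, 7.37 and 7.43 in arrays labelled uninduced and 7.83, 7.90, 7.58 and 7.86 in arrays labelled induced. The uninduced arrays split by B code, with both B_1 arrays above and both B_4 arrays below all 4 induced arrays. Over all arrays the difference by induction label was -0.10 ± 0.15 (SE), made of -0.52 ± 0.12 within B_1 and 0.31 ± 0.12 within B_4.

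HS2ST1, which adds sulfate to the 2-O position of the uronic acids, was among the genes that read higher. It gave 8.44, 8.33, 8.54 and 8.45 in arrays labelled uninduced and 9.63, 9.72, 9.52 and 9.72 in arrays labelled induced. The 2 groups were tight (SD 0.09 and 0.10) and lay apart. The difference was 1.20 ± 0.09 (SE), or 2.30-fold higher. Of 13 exon-level probe sets, 9 were higher by 0.95 to 1.87 log2 units with no overlap of the groups. The other 4, with group means of 3.84 to 5.28, differed by -0.35 to 0.12 and overlapped.

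HPSE, the endoglucuronidase that cuts heparan sulfate chains, stayed dim and overlapped between the labels. It read 4.77, 4.94, 4.80 and 4.99 in arrays labelled uninduced and 4.62, 4.58, 4.77 and 5.12 in arrays labelled induced. The highest and the lowest of the 8 values were both in arrays labelled induced. The difference was -0.10 ± 0.10 (SE), and 0 of its 17 exon-level probe sets had groups that did not overlap. Its exon-level mean fell under the filter for dim genes and was not tested.

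The 2 syndecans, transmembrane core proteins that carry the chains on the cell surface, moved in opposite directions. SDC1 read 6.73, 6.83, 6.86 and 6.84 in arrays labelled uninduced and 6.21, 6.40, 6.52 and 6.58 in arrays labelled induced. The groups did not overlap, but their nearest values were 6.73 and 6.58. The difference was -0.39 ± 0.08 (SE), or 1.31-fold lower. Of 7 exon-level probe sets 6 were lower, with 8050558 and 8050559 lowest at -1.06 and -1.19.

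SDC1 is the defining surface marker of plasma cells, and other plasma cell markers went the other way. By limma, the transcription factor PRDM1 rose by 3.31 ± 0.12 (SE; adjusted p = 2.89e-09) and XBP1 by 1.49 ± 0.09 (adjusted p = 1.71e-07) and the ectoenzyme CD38 averaged 4.58, under the filter, in the uninduced arrays and 11.19 in the induced ones. JCHAIN, the joining chain of secreted antibodies, read 4.68 and 3.82 and was not tested because its mean lay under the filter.

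SDC4, read as the mean of 7 exon-level probe sets, gave 6.96, 6.83, 6.89 and 6.82 in arrays labelled uninduced and 8.09, 8.25, 7.71 and 8.39 in arrays labelled induced. All 4 induced arrays were above all 4 uninduced ones, and the induced B_4 arrays were both the lowest and the highest of their group. The difference was 1.23 ± 0.13 (SE), or 2.35-fold higher. Each of the 7 probe sets was higher with no overlap, 5 of them by at least 2-fold, over a range of 0.35 to 1.69. Over all tested exon-level probe sets 36.6% had no overlap and 22.4% differed by 2-fold or more either way.

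**Figure D3:**
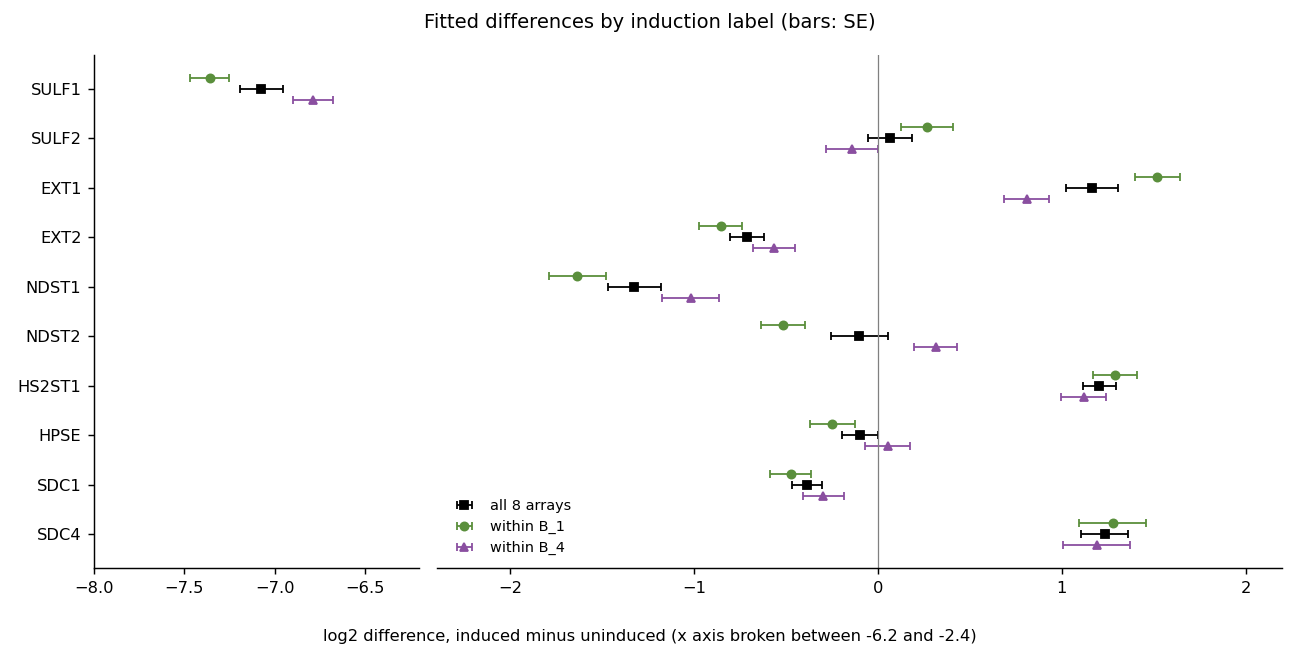
Fitted log2 difference (induced minus uninduced) with its SE for each gene, over all 8 arrays and within each B code; the x axis is broken. NDST2 lies below 0 within B_1 (-0.52) and above 0 within B_4 (0.31), and SULF1 lies apart from the rest at -7.07.

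Sequence just upstream of the start of transcription is shown for SDC4, HS2ST1 and NDST1. These are the genes with a difference of at least 2-fold that the promoter table lists. NDST2 is also shown, which passed between B codes in the arrays labelled uninduced but not over all 8 arrays. Each line gives the 250 bases before the first listed start, from RefSeq on GRCh38.p14; 8 of the 10 genes matched an entry, and SULF1 and EXT1 are named only. Capitals mark matches to the 10-base NF-kB consensus, to the GC box GGGCGG and to the AP-1 motif TGANTCA on either strand. The windows are SDC4 at chr20:45348425-45348674 (minus strand), HS2ST1 at chr1:86914385-86914634 (plus strand), NDST1 at chr5:150497529-150497778 (plus strand) and NDST2 at chr10:73811821-73812070 (minus strand).
SDC4: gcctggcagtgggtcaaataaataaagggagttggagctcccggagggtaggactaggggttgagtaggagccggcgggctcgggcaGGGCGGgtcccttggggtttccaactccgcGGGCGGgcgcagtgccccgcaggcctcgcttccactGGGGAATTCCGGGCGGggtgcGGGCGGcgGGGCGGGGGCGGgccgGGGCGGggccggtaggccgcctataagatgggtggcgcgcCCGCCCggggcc
HS2ST1: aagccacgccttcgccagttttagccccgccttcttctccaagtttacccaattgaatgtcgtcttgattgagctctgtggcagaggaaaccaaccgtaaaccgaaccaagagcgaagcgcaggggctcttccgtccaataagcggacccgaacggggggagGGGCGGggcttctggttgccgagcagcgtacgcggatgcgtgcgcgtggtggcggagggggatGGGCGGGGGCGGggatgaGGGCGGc
NDST1: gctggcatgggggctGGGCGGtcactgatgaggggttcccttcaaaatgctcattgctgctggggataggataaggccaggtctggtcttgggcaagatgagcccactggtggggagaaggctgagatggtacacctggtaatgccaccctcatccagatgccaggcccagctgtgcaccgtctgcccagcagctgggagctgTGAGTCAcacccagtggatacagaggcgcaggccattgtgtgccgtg
NDST2: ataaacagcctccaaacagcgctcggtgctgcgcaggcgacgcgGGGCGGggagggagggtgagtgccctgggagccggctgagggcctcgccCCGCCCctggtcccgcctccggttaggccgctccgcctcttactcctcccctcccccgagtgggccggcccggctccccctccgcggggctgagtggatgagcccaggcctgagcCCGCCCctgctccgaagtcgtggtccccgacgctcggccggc

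The SDC4 window holds 1 NF-kB match, which begins 97 bases before the start and runs straight into a GC box, and 8 GC boxes in all. HS2ST1 has 4 GC boxes, NDST2 has 3, and NDST1 has 1 GC box and 1 AP-1 match. The first listed windows of 8 genes were searched on either strand. The NF-kB consensus was found in 1, the GC box in 5 and the TATA box TATAAA in 2. The AP-1 motif was found in 1, the cyclic AMP response element in 0 and the E-box CACGTG in 1. Both TATA box matches, in EXT2 and HPSE, were to the reverse complement TTTATA. Over all 35116 windows of this length the shares were, in the same order, 9.96%, 42.6%, 10.7%, 6.57%, 1.65% and 6.34%. The GC content was 73.6% for SDC4, 63.2% for HS2ST1, 60.4% for NDST1 and 75.2% for NDST2, beside a median of 58% over all windows. These are letter matches, and the arrays hold no measure of binding.

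The genes were not picked on differences between B codes, but they were picked with earlier results of these data known. Over all 8 arrays limma called 0 of the 10 genes between B_4 and B_1 at an adjusted p under 0.05. It called 0% of genes at gene level and 0% of exon-level gene means. At an unadjusted p under 0.05 there was 1 of the 10, beside 1911 of 13796 genes at gene level. NDST2 was nearest, with a difference of -0.56 ± 0.15 (SE, adjusted p = 0.227). In the arrays labelled uninduced 2 of the 10 had an unadjusted p under 0.05, beside 2673 of 13796 genes at gene level. In these arrays 1 of the 10 passed after adjustment, NDST2, beside 2.86% of genes at gene level and 1.44% of exon-level gene means. There NDST2 fell by 0.98 ± 0.12 log2 units (SE) in B_4, a level 1.97-fold lower (limma, adjusted p = 0.0143, 2 arrays against 2). In the arrays labelled induced its difference was -0.15 ± 0.12 (limma, adjusted p = 0.749) and 0 of the 10 genes passed, beside 0.0652% and 0.0715%. There 3 of the 10 had an unadjusted p under 0.05, beside 1128 of 13796 genes at gene level.

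The call for NDST2 was lost without any 1 of the 4 uninduced arrays. One B code then holds a lone array, which was assumed to vary like the other groups. Without uninduced replicate 1, 2, 3 or 4 the difference stayed between -1.04 and -0.92, and limma's adjusted p was 0.191, 0.164, 0.120 and 0.169. All 17 of its exon-level probe sets were lower in B_4 among arrays labelled uninduced, by -2.12 to -0.46 with a median of -0.94. Among arrays labelled induced 12 of the 17 were lower, with a median of -0.15. Probe sets of one gene share their arrays and their transcripts and are not replicates, and 0 of the 17 passed limma by itself. Probe set 7934474 differed most: in arrays labelled uninduced it read 7.20 and 6.53 in B_1 and 4.74 and 4.77 in B_4.

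**Figure D4:**
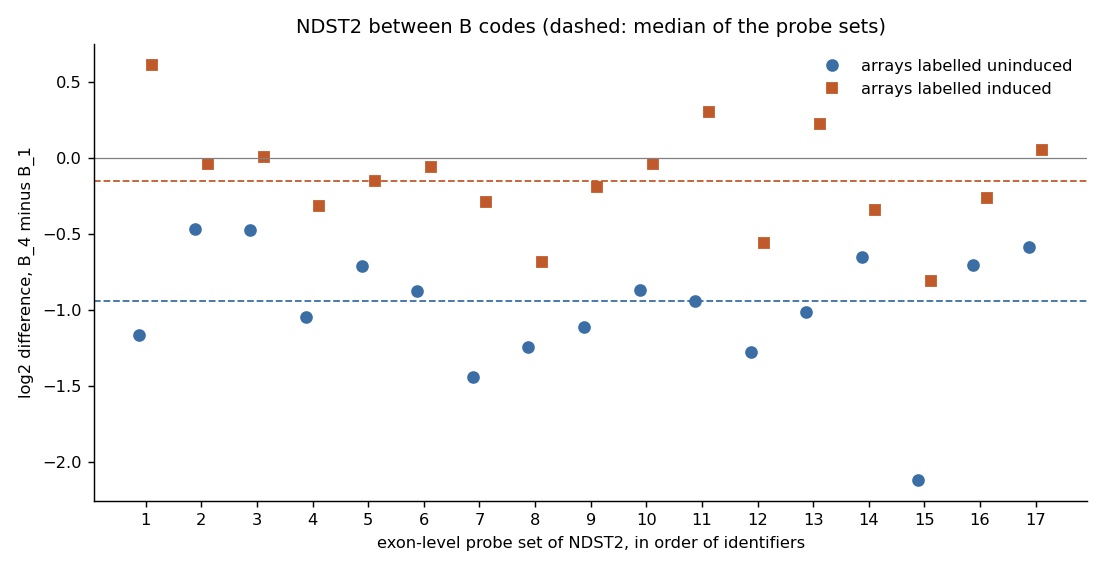
Log2 difference between B codes (B_4 minus B_1, means of 2 arrays each) for the 17 exon-level probe sets of NDST2, in arrays labelled uninduced (circles) and induced (squares); dashed lines are the medians. All 17 circles lie below 0 with a median of -0.94, and the squares lie around a median of -0.15.

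SULF1 came close to the threshold in the same comparison. It was lower in B_4 than in B_1 among arrays labelled uninduced by a fitted -0.47 ± 0.11 (SE, limma, adjusted p = 0.0545), and 26 of its 28 exon-level probe sets read lower there. Those probe sets share their arrays and are not replicates, and 0 of the 28 passed limma by itself. SULF1 passed in 6 of 9 other settings, a threshold of 0.1 among them. With 1 array left out it passed in 2 of 8 fits, and without uninduced replicate 1, 2, 3 or 4 limma's adjusted p was 0.318, 0.251, 0.253 and 0.432. As an exon-level mean it did not pass (-0.31, limma adjusted p = 0.204). The other 8 genes differed by -0.23 to 0.27 in this comparison and did not pass. Over all 33297 gene-level probe sets the uninduced arrays of one B code correlated at 0.9948 or higher, and with the other B code at 0.9925 or lower. The induced arrays did not separate this way (0.9919 or higher within, up to 0.9934 between). The part of this in the NDST2 difference was not tested.

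Whether the difference by induction label itself differed between B codes was tested with an interaction. Limma called 0 of the 10 genes, beside 0.297% of genes at gene level and 0.186% of exon-level gene means. At an unadjusted p under 0.05 there were 4, beside 1638 of 13796 genes at gene level and 1689 of 13992 exon-level gene means. The 4 were NDST2 (0.83 ± 0.17, adjusted p = 0.107), EXT1 (-0.71 ± 0.17, adjusted p = 0.140), SULF1 (0.57 ± 0.15, adjusted p = 0.178) and NDST1 (0.62 ± 0.22, adjusted p = 0.289). For SULF1 the induced values in this term lie under the filter, so its size is not read. With a variance trend and robust fitting NDST2 passed, with an adjusted p that rounds to the threshold of 0.05. Of the exon-level probe sets of the 10 genes 0 passed this interaction, as for 0% of all 168240. For NDST2, 7 of 17 had an unadjusted p under 0.05, beside 12330 of all 168240. In size, the difference by induction label was larger within B_1 than within B_4 for 10 of 10 genes, beside 55.7% of all tested genes and 59.3% of the genes called between labels at gene level. The genes were picked on the difference by label, so nothing is read from this count, and as an exon-level mean SULF2 went the other way (0.01 within B_1 and 0.08 within B_4).

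Between last numbers 4 and 1 limma called 0 of the 10 genes (0 at an unadjusted p under 0.05), with differences of at most 0.17 log2 units in size and adjusted p from 0.664 to 0.990. The background was 0% of genes at gene level and 0.00715% of exon-level gene means. At an unadjusted p under 0.05 it was 971 of 13796 genes at gene level. For the interaction of last number with induction label 0 of 10 passed, as for 0% of genes in both tables. At an unadjusted p under 0.05 there was 1, SDC4 (0.51 ± 0.21), beside 472 of 13992 exon-level gene means.

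The rest of the pathway was counted from 9 gene lists with 115 genes, 85 of them tested. By limma 28 were higher in arrays labelled induced, 25 lower and 32 did not pass. These are 32.9% and 29.4% of the tested genes, beside 27.1% higher and 28.4% lower among all tested genes (55.5% called in all), and the median difference was 0.09 beside 0.02. These shares lie near the background and are no result about the lists. Adjusted p-values below are limma's over all tested genes.

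**Figure D5:**
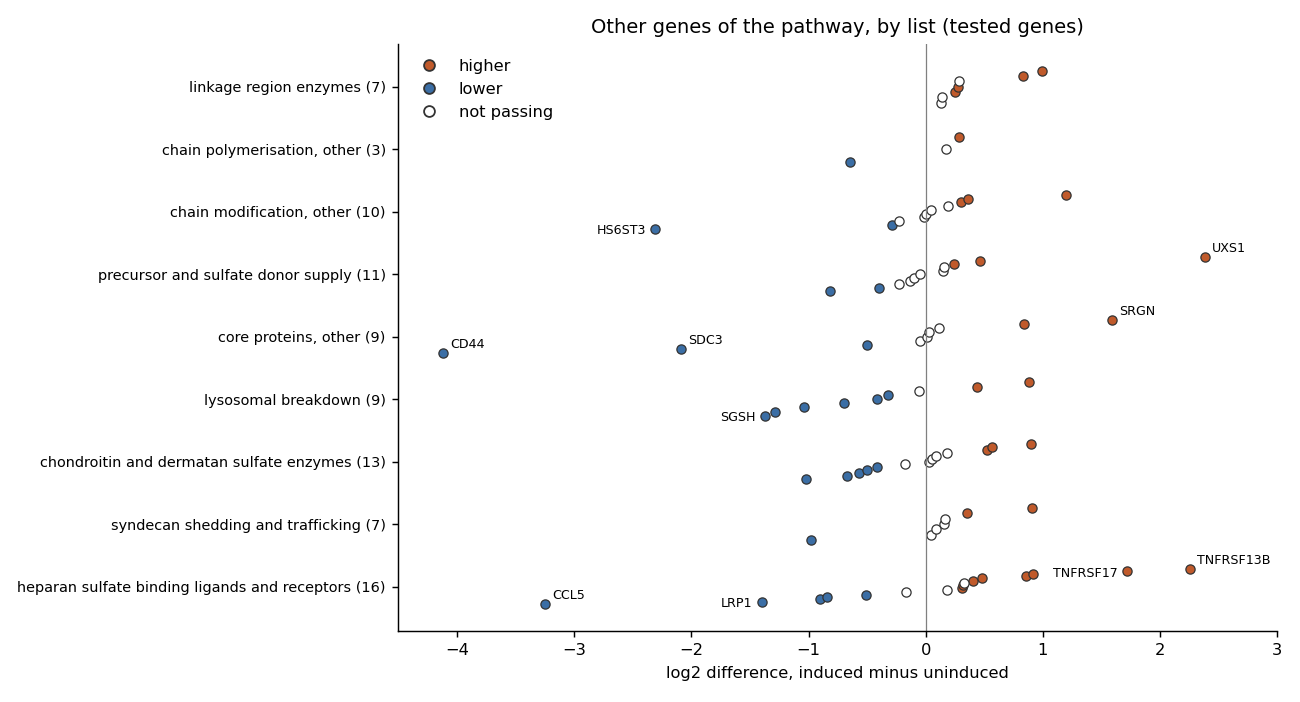
Log2 difference (induced minus uninduced) of the 85 tested pathway genes, by list, with the number tested in brackets; filled points passed limma at an adjusted p under 0.05. CD44 (-4.12) and CCL5 (-3.25) are farthest to the left, and UXS1 (2.38) and TNFRSF13B (2.25) farthest to the right.

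The linkage region enzymes build the short sugar stem on which the chain starts. Of 7 tested, 4 rose, 0 fell and 3 did not pass, with a median of 0.27. PXYLP1, the phosphatase that removes the xylose phosphate from the stem, rose 1.99-fold (adjusted p = 5.66e-05). XYLT1, which adds the first xylose to the core protein, rose by 0.83 ± 0.12 (adjusted p = 0.000125), and the galactosyltransferase B3GALT6 by 0.27 ± 0.10 (adjusted p = 0.0430). Of the 3 other polymerisation genes, EXTL3, which starts the chain, rose by 0.28 ± 0.10 (adjusted p = 0.0356), EXTL2 fell by 0.65 ± 0.11 (adjusted p = 0.000434) and EXTL1 did not pass (0.17).

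Among the other chain-modifying enzymes 3 of 10 tested rose, 2 fell and 5 did not pass. GLCE, the C5-epimerase that makes iduronic acid, rose 2.29-fold (1.20 ± 0.10, adjusted p = 2.40e-06). Of the 6-O-sulfotransferases, HS6ST1 fell by 0.29 ± 0.08 (adjusted p = 0.0119), and HS6ST3, the other gene that passed as lower, averaged 7.04 in the uninduced arrays and 4.73, under the filter, in the induced ones. The 3-O-sulfotransferases HS3ST3B1 and HS3ST2 rose by 0.36 ± 0.09 and 0.30 ± 0.11. NDST4, another N-deacetylase and N-sulfotransferase, averaged 5.46 under the uninduced label and 3.05 under the induced one, but its mean was under the filter and it was not tested.

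Precursor and sulfate donor supply had 3 of 11 tested genes higher, 2 lower and 6 not passing. UXS1, which makes UDP-xylose, rose 5.22-fold (2.38 ± 0.10, adjusted p = 8.26e-09). UGDH, which makes the UDP-glucuronic acid that UXS1 uses, rose by 0.46 ± 0.13 (adjusted p = 0.0121) and UGP2 by 0.24 ± 0.08 (adjusted p = 0.0241). The sugar nucleotide transporter SLC35A3 fell by 0.82 ± 0.10 (adjusted p = 3.32e-05) and the phosphatase BPNT1 by 0.40 ± 0.10 (adjusted p = 0.00760). The sulfate donor synthases PAPSS1 and PAPSS2 did not pass, at -0.10 and -0.05.

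Of the other core proteins 2 of 9 tested rose, 3 fell and 4 did not pass. CD44, whose splice forms can carry heparan sulfate, fell 17.4-fold over all arrays (-4.12 ± 0.18, adjusted p = 1.18e-08). Its difference by label itself differed between B codes (limma interaction, adjusted p = 0.0368), as for 0.297% of genes at gene level. SDC3, another syndecan, fell 4.26-fold (-2.09 ± 0.18, adjusted p = 2.37e-06). The basement membrane proteoglycan AGRN fell by 0.50 ± 0.09 (adjusted p = 0.000806). SRGN, the proteoglycan of secretory granules, rose by 1.59 ± 0.13 (adjusted p = 1.50e-06) and TGFBR3, the type III TGF-beta receptor, by 0.84 ± 0.10 (adjusted p = 2.46e-05). SDC2, with means of 4.66 and 4.57, and the glypicans GPC3, GPC4, GPC5 and GPC6 were under the filter.

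Lysosomal breakdown had 2 of 9 tested genes higher, 6 lower and 1 not passing, with a median of -0.41. The sulfamidase SGSH fell by 1.38 ± 0.16 (adjusted p = 2.22e-05), the sulfatase-activating enzyme SUMF1 by 1.29 ± 0.09 (adjusted p = 3.13e-07) and the iduronate sulfatase IDS by 1.04 ± 0.09 (adjusted p = 3.93e-06). The beta-glucuronidase GUSB rose by 0.88 ± 0.10 (adjusted p = 2.46e-05) and NAGLU by 0.44 ± 0.09 (adjusted p = 0.00170).

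Chondroitin and dermatan sulfate enzymes, which draw on the same linkage stem, gave 3 higher, 5 lower and 5 not passing of 13 tested. CHST15 rose by 0.90 ± 0.12, CSGALNACT2 by 0.56 ± 0.08 and CHSY1 by 0.52 ± 0.10, while CHPF2 fell by 1.02 ± 0.09, CHST7 by 0.67 ± 0.09 and CHST11 by 0.57 ± 0.09 (all SE). Among syndecan shedding and trafficking genes 2 of 7 rose, 1 fell and 4 did not pass. The sheddases ADAM10 and ADAM17 went opposite ways, by 0.91 ± 0.10 (adjusted p = 1.44e-05) and -0.98 ± 0.10 (adjusted p = 1.20e-05), and the syndecan-binding adaptor SDCBP rose by 0.36 ± 0.09 (adjusted p = 0.00712). MMP7 read 5.65 and 3.63 and was under the filter.

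The list of ligands and receptors linked to heparan sulfate binding had 8 of 16 tested genes higher, 5 lower and 3 not passing, with a median of 0.31. Receptors in it are counted whether or not they bind the chain themselves. TNFRSF13B (TACI), whose ligand APRIL also binds heparan sulfate chains, rose 4.77-fold (2.25 ± 0.08, adjusted p = 2.30e-09), and TNFRSF17 (BCMA), the other APRIL receptor, rose 3.29-fold (1.72 ± 0.25, adjusted p = 0.000136). The receptor FGFR1 rose by 0.92 ± 0.09 (adjusted p = 4.86e-06). The chemokine CCL5 fell 9.52-fold (-3.25 ± 0.09, adjusted p = 3.87e-10), the endocytic receptor LRP1 by 1.40 ± 0.11 (adjusted p = 1.19e-06) and the growth factor PDGFA by 0.90 ± 0.10 (adjusted p = 2.37e-05).

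SULF1 is also a gene of stromal cells, so markers of other cell types were read beside it. Of the fibroblast markers 8 of 12 were tested, 2 rose, 2 fell and 4 did not pass; DCN, LUM, PDGFRA and POSTN lay under the filter. In 3 of the 4 that passed, 1 group mean lay under the filter: FAP averaged 8.56 in the uninduced and 3.29 in the induced arrays, FN1 5.73 and 4.54, and COL6A3 4.31 and 7.65. The collagens COL1A1, COL1A2 and COL3A1 differed by -0.04, -0.06 and 0.18 without passing. The summed linear signal of the list ran from 676 to 898 without and from 488 to 659 with the induced label. FAP was the brightest gene of the list in the uninduced arrays (8.56, next COL1A1 at 6.73). The sum is therefore no measure of the whole list. Of 8 endothelial markers 3 were tested and 1, PECAM1, fell (-5.60 ± 0.10, limma adjusted p = 1.93e-11). CLDN5 (0.16) and ESAM (-0.17) did not pass, and the other 5 lay under the filter. The sum ran from 1561 to 2084 and from 231 to 253. In the uninduced arrays it was mostly PECAM1, which averaged 10.64 there, so it is no measure of the whole list. Epithelial markers gave 2 higher and 1 lower of 5 tested, T cell markers 0 of 3, and myeloid markers 1 higher and 1 lower of 5. Beside these counts, limma called 27.1% of all tested genes higher and 28.4% lower. The part of other cells in the SULF1 difference was not tested.

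For each gene with a difference over 1 log2 unit, the tested genes with the closest mean-centred profile over the 8 arrays were listed by root mean square distance. For SULF1 these were MAOA (0.12 log2 units), IL13RA1 (0.14) and GSTM1 (0.15). For EXT1 they were VANGL1, RAP1A and OSTF1, each at 0.11. NDST1 was closest to AP2B1 (0.13), INHBA (0.14) and SLC9A5 (0.14), and HS2ST1 to CCDC134 (0.05), GRB2 (0.06) and SMYD2 (0.06). SDC4, among exon-level gene means, was closest to SFI1 (0.06), DENND6B (0.06) and PDXK (0.09). Such closeness is a description of 8 arrays that mostly separate by label.

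The genes up to 3 places away on each side of each of the 10 in annotation order were read for comparison, with all differences on the log2 scale (induced minus uninduced). The tested neighbours of SULF1 were SLCO5A1 (-0.02) and NCOA2 (0.50), and those of EXT1 were AARD (0.01) and MED30 (0.23). For SULF2 the tested neighbours were EYA2 (0.14), ZMYND8 (-0.12), PREX1 (0.04), ARFGEF2 (-0.33) and CSE1L (-0.36). Around EXT2 were C11orf96 (-0.15), ACCS (-0.47), ALX4 (-0.03), CD82 (-2.15) and TSPAN18 (-0.03). NDST1, itself at -1.33, lay among ARSI (0.39), TCOF1 (-0.41), RPS14 (-0.16), SYNPO (-0.06), MYOZ3 (-0.02) and RBM22 (-0.26). HS2ST1, itself at 1.20, lay among SH3GLB1 (-0.24), SELENOF (0.20), LINC01140 (-0.05), LMO4 (-0.41) and PKN2 (-0.63).

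Near HPSE were COPS4 (0.10), PLAC8 (4.90), COQ2 (0.68), HELQ (-0.05), MRPS18C (0.46) and ABRAXAS1 (-0.79). The tested neighbours of SDC1, itself at -0.39, were WDR35 (-2.66), LAPTM4A (-1.95), PUM2 (-0.22), RHOB (-1.74) and HS1BP3 (-0.50). For SDC4 they were SLPI (-0.03), MATN4 (0.03), RBPJL (0.03), PIGT (0.30) and WFDC2 (-0.04). Around NDST2 were POFUT4 (1.10), CHCHD1 (0.92), ZSWIM8 (0.17), CAMK2G (0.03) and PLAU (-1.67). In the comparison of B codes within arrays labelled uninduced, the neighbours of NDST2 differed by 0.24 (POFUT4), -0.34 (CHCHD1), -0.13 (ZSWIM8), 0.21 (CAMK2G) and -0.44 (PLAU), against -0.98 for NDST2.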

How the data were processed

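The deposited values are log2 signals made by the authors with RMA and Partek, per the submitters' processing notes, which give no versions; base 2 was taken from the range of the values. The same 8 arrays were deposited as a gene-level and an exon-level summary (4428 of 4428 shared features identical), so the exon level adds no replicates. Column medians were 5.79 to 5.88 and 6.51 to 6.59. The array's genome build is not given in the sources used here.

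Probe sets with 1 gene symbol were named (19460 of 33297 at gene level, with 1754 carrying several symbols and 12083 none; 224320 of 257430 at exon level), symbols were updated through RefSeq, and the brightest probe set stood for a gene. Features whose mean over all arrays lay below the 25th percentile (4.77 for genes, 4.95 for exon-level means) were not tested. Tests used limma 3.58.1 in R 4.3.3 with B code, last number and induction label as terms, or with B code and label as cells, adjusted by Benjamini-Hochberg over all 13796 genes, 13992 exon-level gene means or 168240 probe sets, at a threshold of 0.05. Scripts were tested on simulated data.

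The genes and gene lists were chosen with earlier results of these data known. Reading NDST2 and SDC4 from exon-level means, the 6 motifs and the 4 promoters printed were chosen after values were seen. The text names all 10 genes, RELB, up to 3 passing genes in each direction per pathway list, the 3 closest profiles, the tested genes among the 3 neighbours on each side, and the lowest and highest probe sets. Other genes named (untested list members and cell type markers) were chosen after their values were seen.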

Additional observations from a re-analysis of the deposited data

Results flagged for a closer look

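NDST2 differed by induction label in opposite directions in the B codes: both arrays labelled induced read lower than their partners in B_1 and both read higher in B_4. The difference in B_4 minus that in B_1 was 0.83 ± 0.17 log2 units (SE), and limma's interaction test did not pass (adjusted p = 0.107, with a range of 0.05 to 0.466 over the alternatives). For the genes described, 0 groups of 4 arrays held a single array far from the other 3 by Dixon's criterion.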

How the results depend on the processing

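Of 208 alternatives to 13 comparisons, 187 kept the side of the threshold or a similar count. For 11 results on single genes, 183 of 194 alternatives kept the side of the threshold or moved by less than 1 SD. The sign changed for 2 genes with differences near 0 and overlapping groups: SULF2 (0.06) gave -0.06 without uninduced replicate 2 and -0.01 without induced replicate 2, and NDST2 (-0.10) gave 0.02 without uninduced replicate 1 and 0.01 without induced replicate 2. Between B codes in the arrays labelled uninduced, 2 of the 10 genes passed (1 as reported) when genes under the median were left out, with quantile normalisation, median centring, a variance trend with robust fitting, a random replicate block or a threshold of 0.1; leaving out 1 array gave 0 to 2. For NDST2 in that comparison, leaving out 1 array gave -1.04 to -0.92. The interaction called 1 gene, NDST2 (0.83), with the variance trend and robust fitting, and the B code comparison over all arrays called 1 with the random replicate block; each called 0 as reported. With exon-level means 3 of the 10 genes were at least 2-fold between induction labels, where 5 were reported. Of the pathway genes 16 fell, not 25, when genes under the median were left out, since fewer were tested. For the other results the cause of the change was not tested. Arrays of one replicate number share a B code and a last number that the labels do not explain, and the data did not pair them: the correlations of their deviations from the group means were 0.158, -0.021, 0.114 and 0.022 over 13796 genes, and 2 of 4 uninduced arrays correlated best with their own number. With that number as a fixed replicate block 5 genes stayed at least 2-fold, and 26 pathway genes rose and 25 fell. The number of arrays limits precision, and signals near 4.77 cannot be ordered.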
